A study of Ginkgo biloba with 9 samples.

Results

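The 42 gene models described here lost transcript level in each of the intervals between 3 autumn dates in the foliage of Ginkgo biloba, a gymnosperm tree that sheds its yellowed leaves each year. They were chosen from 43834 gene models by their measured counts. A normalized count is the read count of a model divided by the library's DESeq2 median-of-ratios size factor, a scaling that sets the typical model level across libraries. A member had a normalized count of at least 270 in every green library, and its lowest green library stood at least 2 times above its highest turning library. Its lowest turning library also stood at least 2 times above its highest yellow library, and at least 1 yellow library reached 27. Models among the 100 with the highest mean in green or in yellow leaves were to be left out, and this condition removed 0 models.

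RNA sequencing compared leaves at 3 stages of autumn senescence and coloration, with 3 libraries per stage and 9 in all. The green stage was sampled on September 12, the turning stage on October 26 and the yellow stage on November 8. According to the labels, all stages were sampled from 3 healthy adult trees growing outdoors in Yangzhou, with no treatment named, and the labels do not say which library came from which tree. Stage and calendar date cannot be told apart, and a p-value here reflects only how far the libraries of a stage spread, which may be partly technical.

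During autumn senescence a leaf dismantles its chloroplasts, breaks down chlorophyll and exports nitrogen and other nutrients to the perennial parts of the tree. The loss of chlorophyll uncovers the yellow carotenoids. At the transcript level such a leaf passes from genes that serve photosynthesis and growth towards genes that serve breakdown and transport. The files do not pair gene models with gene names, so the role of none of the 42 models is given, and no pathway list, leaf marker or marker of another cell type could be looked up. For the same reason only 2 models are named.

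Total counts per library ran from 23766331 to 32319325, and the size factors from 0.651 to 1.49, with stage means of 1.30 for green, 1.16 for turning and 0.691 for yellow. Size factors adjust for the counts that a few very abundant models take, and levels are therefore relative to the other models of the same library. In whole leaves, fewer cells of a type and less RNA per cell cannot be told apart. Counts were not corrected for the length of a model, so the order of models by level is no order of transcript number. Counting intervals below hold only the error of counting, because PCR copies were not marked and reads are not independent molecules.

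Few of the well-expressed green-leaf models took both steps. Of the 9354 models with a normalized count of at least 270 in all 3 green libraries, 155 took the first step, which is 1.66%, and 478 took the second, which is 5.11%. Both steps were taken by 53 models, or 34.2% of the 155. Of these 53, 42 kept a yellow library at 27 or more and are the members, 0.449% of the 9354. The other 11 stayed under that floor, with green means from 311 to 1682 and yellow means from 0 to 22.5. Steps between stage means were far more frequent: 293 of the 9354 models had a mean at least 2 times lower in turning than in green leaves and again at least 2 times lower in yellow than in turning leaves. The same thresholds turned round, for a rise in each interval, were met by 121 models. That rule asks for at least 270 in every yellow library, so it draws on another pool, whose size is not given. The counts of falling and rising models thus have unlike bases, and both depended on the scaling. They were 42 and 120 with TMM, 62 and 80 with upper-quartile scaling, and 122 and 51 with library totals. The identifiers of 40 members begin with Gb_ and those of the other 2 with a second prefix, which makes up 4.76% of the members, against 2.83% of the 9354 models.

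The 42 models together held 0.230% ± 0.00541 of all read counts at the green stage, 0.0594% ± 0.00294 at the turning stage and 0.0107% ± 0.000223 at the yellow stage (SD, n = 3 libraries each). This share does not depend on a size factor, but it does depend on the counts that other models take. The members' summed normalized counts had stage means of 49135 for green, 14635 for turning and 3835 for yellow, in proportion a smaller fall than that of the share. In single libraries the share was 0.236%, 0.226% and 0.227% for green, 0.0592%, 0.0624% and 0.0565% for turning, and 0.0105%, 0.0109% and 0.0108% for yellow. That the stages do not overlap in this share follows from the rule. The libraries within a stage lay close together. The widest 95% Wilson interval, that of green library 2, ran from 0.224% to 0.228%. In raw reads the members had 53749 to 76132 counts in a green library, 14858 to 18262 in a turning library and 2593 to 2675 in a yellow library.

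**Figure D1:**
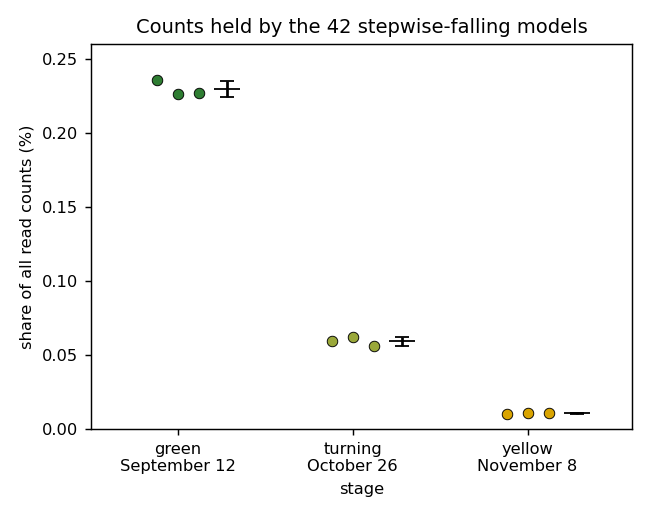
Share of all read counts of a library held by the 42 models, in percent, for the 3 libraries of each stage (points) with the stage mean and SD (bar). The green libraries sit between 0.226% and 0.236%, the turning libraries between 0.0565% and 0.0624% and the yellow libraries between 0.0105% and 0.0109%.

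The members covered a broad range of green levels. Their green means ran from 330 to 5531 normalized counts with a median of 874, and 17 members were at 1000 or more while 15 were under 500. Turning means ran from 104 to 1929 with a median of 232, and yellow means from 18.6 to 749 with a median of 48.8. The 5 members with the highest green means held 34.1% of the members' summed green level. Ranked by green mean among all models, the members stood between place 560 and place 9392, and by yellow mean between place 6635 and place 19402.

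**Figure D2:**
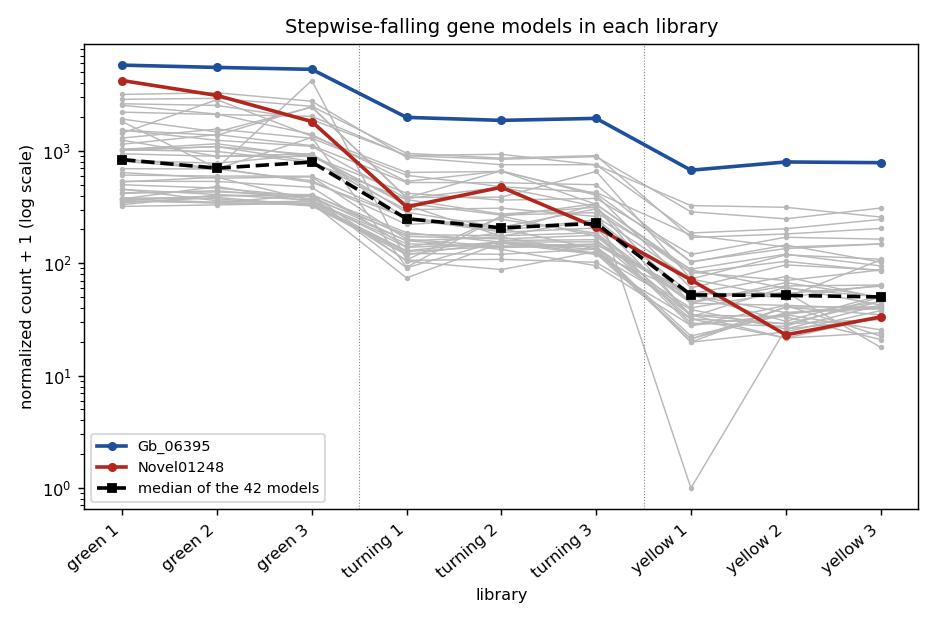
Normalized count plus 1 (log axis) of each of the 42 models in the 9 libraries, with Gb_06395 and Novel01248 in colour and the median of the 42 models as a dashed line. The median lies between 700 and 834 in green, between 205 and 248 in turning and between 49.1 and 51.2 in yellow libraries, and 1 model reaches 0 counts in yellow library 1.

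Gb_06395, the member with the highest green mean, had 5778, 5513 and 5302 normalized counts in the green libraries, 1982, 1863 and 1942 in the turning libraries, and 671, 794 and 783 in the yellow libraries. The libraries of a stage were nearly level, with the highest 1.09 times the lowest for green, 1.06 times for turning and 1.18 times for yellow. Its turning mean was 34.9% of its green mean, and its yellow mean 13.6% of its green mean. The log2 fold change was -1.51 ± 0.12 in turning versus green leaves (SE; edgeR adjusted p = 0.00118) and -1.40 ± 0.12 in yellow versus turning leaves (edgeR adjusted p = 0.000286). The log2 falls in the 2 intervals were thus close in size, and the turning level stood apart from the mean of the log2 green and yellow levels by -0.06 ± 0.10 (SE; edgeR adjusted p = 0.781). Even in yellow leaves the model was read 498 to 540 times per library.

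Novel01248 had the largest ratio of its lowest green to its highest yellow library, 26.0 times, with 25.4 times in the next member. By stage means another member fell further, its yellow mean being 0.828% of its green mean. Novel01248 had 4215, 3107 and 1819 normalized counts in the green libraries, 316, 473 and 208 in the turning libraries, and 70.1, 22.1 and 32.2 in the yellow libraries. Here the libraries of a stage differed by 2.32 times for green, 2.27 times for turning and 3.17 times for yellow. The turning mean was 10.9% and the yellow mean 1.36% of the green mean. The log2 fold change was -3.19 ± 0.49 in turning versus green leaves (SE; edgeR adjusted p = 0.00475) and -3.02 ± 0.51 in yellow versus turning leaves (edgeR adjusted p = 0.00253). Its yellow libraries held 52, 15 and 21 raw reads, and the exact Poisson interval of the 15 reads ran from 8.40 to 24.7.

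The turning mean of a member was between 10.5% and 43.8% of its green mean, with a median of 33.5%. In the second interval the yellow mean was between 7.92% and 39.99% of the turning mean, with a median of 23.4%. Over the whole autumn the yellow mean was between 0.828% and 16.6% of the green mean, with a median of 7.59%, and 31 members were at least 10-fold and 8 at least 20-fold lower in yellow than in green leaves. A drop of at least 4-fold between stage means was seen for 7 members in the first interval and for 22 in the second. At least 3-fold drops occurred for 21 members in the first interval and for 34 in the second, and 18 had them in both. These sizes are bounded from below by the rule that chose the models.

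Models with green means of 1000 or more had a median log2 change of -1.79 in turning versus green leaves, and models under 500 one of -1.48. In yellow versus turning leaves the medians were -2.15 and -1.96. Across the 42 models, log2 green mean and the first log2 change correlated with Pearson's r of -0.41 and Spearman's rho of -0.41, and log2 green mean and the second change with -0.19 and -0.13. The models are no independent replicates, all points share the same 9 libraries, and the green mean enters both axes of the first relation. The yellow floor also leaves a model that starts higher more room to fall, and its part in these relations was not tested.

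All 42 models were among the 23042 models tested by edgeR, and all 42 were called lower in each of the 3 pairwise comparisons (quasi-likelihood test, Benjamini-Hochberg adjustment over all models tested, threshold 0.05). In turning versus green leaves 12.3% of all tested models were called lower, in yellow versus turning leaves 21.0%, and in yellow versus green leaves 31.9%. With the replicate number as a block the members' calls were again 42 each, beside 19.3%, 26.0% and 35.6% of all tested models. The rule used these same contrasts, so nothing is read from the count. The median log2 fold change of the members was -1.57 in turning versus green leaves, -2.12 in yellow versus turning leaves and -3.74 in yellow versus green leaves, against -0.02, -0.05 and -0.06 for all tested models. Standard errors had medians of 0.21, 0.23 and 0.24 in the same order. The highest adjusted p of a member was 0.0319 in the first, 0.0182 in the second and 0.000753 in the whole-season comparison.

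**Figure D3:**
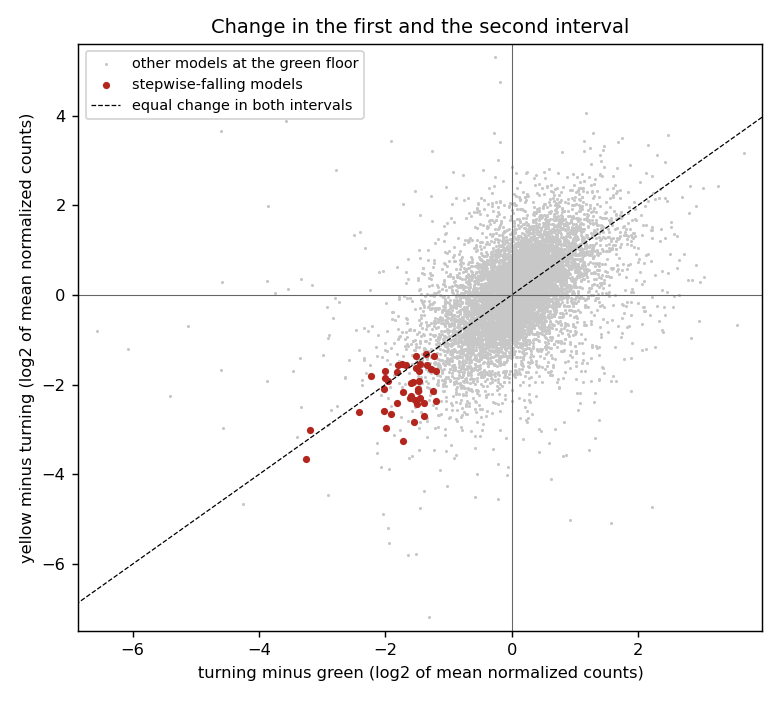
Log2 change of the mean normalized count in the first interval (turning minus green, x axis) and in the second (yellow minus turning, y axis) for the models at the green floor (grey), without 2 models that have a stage mean of 0, and for the 42 members (red). The dashed line marks equal change, and 31 of the 42 members lie below it, with a larger log2 fall in the second interval.

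By the turning date a member had covered a median of 0.45 of its log2 fall from green to yellow, with quartiles of 0.41 and 0.50 and a range from 0.34 to 0.55. The share was under 0.5 in 31 members and above it in 11. No such count is given for the other models at the green floor, so this lean is not shown to be particular to the members. Within library numbers 1, 2 and 3 the median share was 0.45, 0.45 and 0.47. On the linear scale most of the loss came first: the drop by the turning date was between 61.5% and 90.3% of the drop by the yellow date, with a median of 72.6%.

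**Figure D4:**
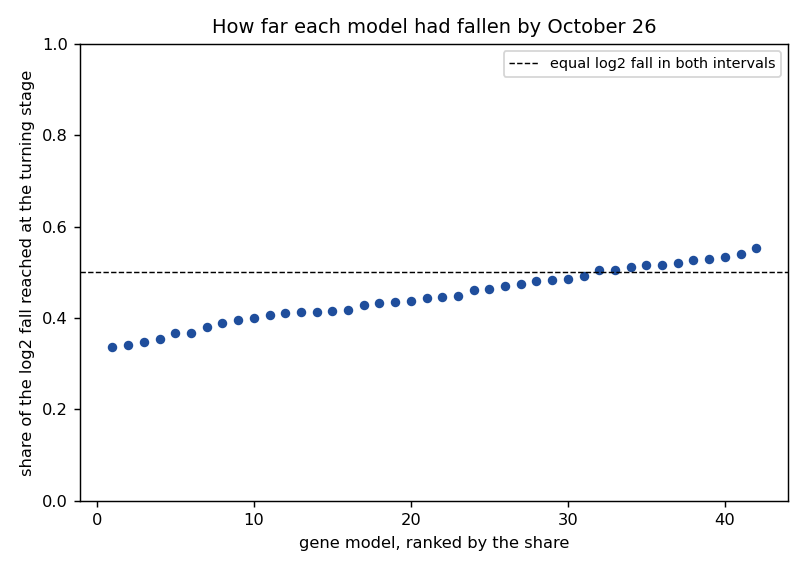
Share of the log2 fall from green to yellow that each of the 42 models had reached at the turning stage, in ascending order. The shares run from 0.34 to 0.55, and 31 lie under the dashed line at 0.5, which marks an equal log2 fall in both intervals.

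The intervals differed in length, 44 days before the turning date and 13 days after it. Per 10 days the median log2 change was -1.61 in the second interval and -0.36 in the first. The log2 fall per day in the second interval was 2.74 to 6.69 times that in the first, with a median of 4.21 times. Equal log2 falls in both intervals would give 3.38 times from the interval lengths alone, and 31 members lay above that value. Ratios above 1 are thus largely set by the lengths of the intervals, together with a rule that asks for a fall in each. With 1 date per stage, the course of the fall within an interval is not known.

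A test of the turning level against a midpoint, the mean of the log2 levels of green and yellow leaves, called 1 member above the midpoint and 0 below it (edgeR adjusted p below 0.05), where 1.56% of all tested models were called above and 1.08% below. With the replicate number as a block 3 members were above and 0 below, against 4.97% and 4.77% of all tested models. At an unadjusted p under 0.05 and without the block, 8 members lay above the midpoint and 0 below, beside 11.8% and 9.55% of all tested models. The fitted difference was positive for 32 of the 42 members, with a median of 0.22 against 0.03 for all tested models. The latter median lies above 0, so a positive sign was common among all tested models too. Their share with a positive sign is not given, so this lean is not shown to be particular to the members. The 1 member called had 1526, 1238 and 1095 normalized counts in the green libraries, 375, 473 and 319 in the turning libraries, and 43.1, 41.2 and 38.4 in the yellow libraries. Its turning level stood 0.78 ± 0.16 above the midpoint (SE; edgeR adjusted p = 0.0461), and 0.35 of its log2 fall had been reached. This call was lost with DESeq2 size factors within edgeR, with limma-voom, and when any 1 of the 9 libraries was left out. Fewer of all tested models were called with 1 library left out, 0.0421% to 2.35% against 2.63%. The call was kept with upper-quartile factors, library totals, the DESeq2 Wald test, no filter and the replicate block.

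The spread within a stage was widest in yellow leaves. The highest library of a stage was a median of 1.23 times the lowest for green, 1.31 times for turning and 1.57 times for yellow, against 1.26, 1.30 and 1.38 times for the 9354 models at the green floor. A spread of more than 2 times was seen for 3 members at the green, 4 at the turning and 5 at the yellow stage. These are 7.14%, 9.52% and 11.9% of the members, near the 7.22%, 9.12% and 13.6% of the models at the green floor. All 3 with a wide green spread had green means of at least 1876. The widest was the member ranked sixth by green mean. It had 1817, 699 and 4214 normalized counts in the green libraries, 106, 260 and 337 in the turning libraries, and 0, 25.01 and 30.7 in the yellow libraries. Its green libraries thus spread 6.03-fold, while the rule requires stages that do not overlap. Its 0 counts in yellow library 1 stand for a level of up to 4.04 normalized counts, the value of 3 reads there. It had the highest adjusted p of all members in each pairwise comparison.

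**Figure D5:**
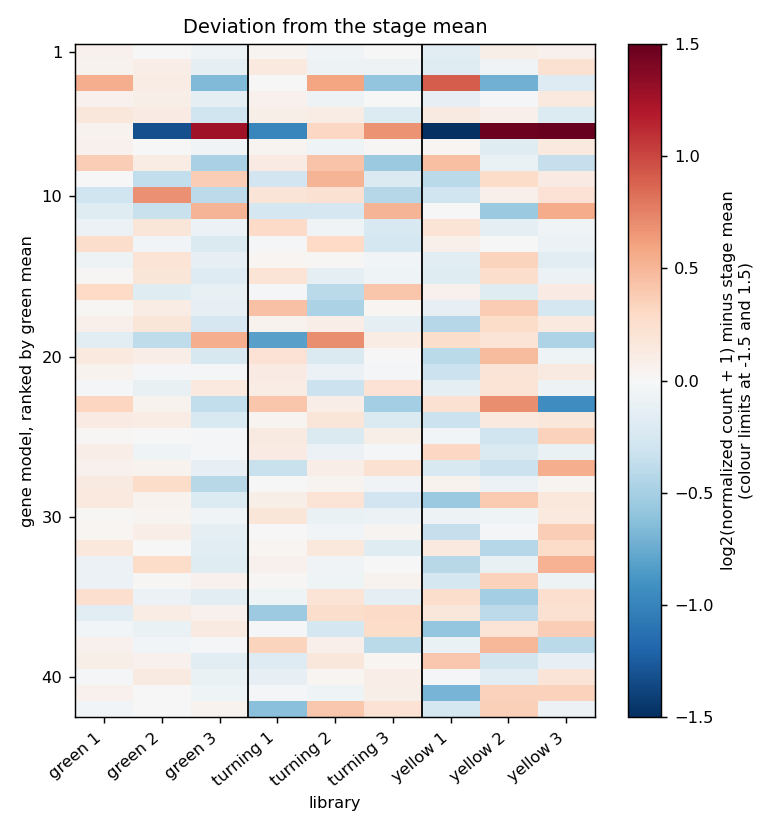
Deviation of log2(normalized count + 1) from the mean of its stage, for the 42 models ranked by green mean (down the page) in the 9 libraries (across). Most cells are pale, and the model in row 6, whose green libraries differ 6.03-fold, stands out.

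Over the whole season the fall was shallowest in the libraries numbered 3. Green library 3 was the lowest of its stage for 30 of the 42 members, or 71.4%, and for 34.1% of the models at the green floor. Yellow library 3 was the highest of its stage for 42.9% of the members and for 37.9% of the models at the green floor, and the lowest for 16.7% and 33.7%. Yellow library 1 was the lowest for 21 of the 42 members and for 34.2% of those models. The median log2 change of the yellow versus the green library of the same number was -3.92, -3.70 and -3.45 for numbers 1, 2 and 3, against 0.17, 0.15 and 0.14 for the models at the green floor. The first of these medians leaves out the member with 0 counts. Members had to pass the rule in their lowest green library, and without green library 3 the rule was met by 73 models, all 42 members among them. The part of any technical difference between libraries in this was not tested.

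Members at the limits of the rule were separated from non-members by small differences. The member closest to the first limit had a lowest green library 2.02 times its highest turning library, and the closest model outside had 1.98 times, with 202 normalized counts in its highest turning library against 401 in its lowest green library. For the second limit these ratios were 2.003 inside and 1.95 outside. In all, 12 models missed only the first step with a ratio of 1.8 or more, and 7 missed only the second in the same range. At the green floor the lowest member had 319 normalized counts in its lowest green library, and the closest of 3 models that failed this condition alone had 245. At the yellow floor the highest yellow library of the closest member had 30.7 normalized counts, and that of the closest model outside 26.1. All 3 yellow libraries reached 27 in 27 members, 2 did in 10 members and only 1 did in 5. Summed over the yellow libraries a member had 37 to 1548 raw reads with a median of 100.5, and the exact Poisson interval of the 37 reads ran from 26.1 to 51.0.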

How the data were processed

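The table that the authors deposited holds unnormalized read counts of gene models, with a column for each of 9 libraries. CASAVA 1.8, HISAT2 2.0.4 and HTSeq 0.6.1 were used, per the submitters' processing notes. Genome build, annotation, strand setting and read filters were not given in the sources used here, so models that overlap or share reads with near-identical copies carry that uncertainty.

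The members, lists and tests were chosen with earlier results of these data known. Members were found from counts divided by DESeq2 1.42.0 size factors. All models passing filterByExpr (minimum count 10, minimum total 15) were fitted in R 4.3.3 with edgeR 4.0.16, TMM factors and 1 robust quasi-likelihood model of the stage over 9 libraries. P-values were two-sided, adjusted by Benjamini-Hochberg over 23042 models, with a threshold of 0.05. Alternatives were other scalings, the DESeq2 Wald test, limma-voom (limma 3.58.1), no filter, the replicate block, each library left out, and other thresholds of the rule. Scripts were tested on simulated data.

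Named models, by rule, are the member with the highest green mean and the one with the largest ratio of lowest green to highest yellow library. The gene name lists could not be applied without names. Libraries of 1 stage differed beyond sampling noise (chi-square per degree of freedom 43.9 to 138). Same-numbered libraries deviated together from their stage means (r from 0.24 to 0.66 in 9 pairs, each over the limit of 0.1; -0.52 to 0.03 for other pairs). Over the 42 members alone r ran from -0.36 to 0.72 in same-numbered pairs, below 0 in all 3 pairs of number 2, and from -0.69 to 0.63 in other pairs. On the values over all tested models the library numbers were taken to pair the libraries, from the data and not from the labels. Standard errors and p-values are from the fit without this pairing unless the replicate block is named.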

Additional observations from a re-analysis of the deposited data

How the results depend on the processing

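The number of members moved by over 1.5 times with library totals, other fold minimums, no floors and without green library 3. The rule was met by 42 models with TMM scaling, all of them members, by 62 with upper-quartile scaling and by 122 with library totals, 35 of them members. It was met by 174 models at a fold minimum of 1.5, by 2 at a minimum of 3, and by 185 without floors. It was met by 45 and 28 models with green floors of 200 and 400, and by 42 with no exclusion of abundant models. Leaving out 1 library gave 44 to 73 models, with 39 to 42 of the members. Among alternatives chosen after the data were seen, the green floors included, 119 models met it without the 3 libraries numbered 3, and 544 with library totals and no floors.

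The pairwise calls hardly moved: 40 to 42 members were called lower in turning versus green leaves (40 without green library 1 or turning library 3), 41 or 42 in yellow versus turning leaves and 42 in yellow versus green leaves over 17 alternatives, the replicate block with 42 each among them. Library totals moved the median of all tested models to -0.78 and that of the members to -4.46 in yellow versus green leaves. The difference between these medians was -3.68 both there and with TMM. A change of scaling shifts all models nearly alike, so this difference could hardly move, and nothing is read from it. Members differing from the midpoint numbered 0 with DESeq2 size factors, limma-voom or without the libraries numbered 3, where 2.49%, 2.70% and 0% of all tested models were called, against 2.63% with TMM. They numbered 2 with upper-quartile factors, 3 with the replicate block, 5 with the DESeq2 Wald test and 6 with library totals, beside 2.84%, 9.74%, 11.01% and 5.91% of all tested models. With 1 library left out they numbered 0 or 1, beside 0.0421% to 2.35%. The cause was not tested. The log2 share at the turning stage was 0.42 with library totals and 0.43 to 0.46 with 1 library left out. The mean share of counts ran from 0.227% to 0.232% in green, from 0.0579% to 0.0608% in turning and from 0.0106% to 0.0108% in yellow leaves with 1 library left out. Gb_06395 and Novel01248 were called lower in all 3 pairwise comparisons under all 17 alternatives. In yellow leaves 15 members had a library under 27 normalized counts, so their values there rest on few reads.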
